A study of Mus musculus with 18 samples.

Results

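Mammary tumors that arose in mice with deleted Brca1 and Trp53 (B1/P tumors, n = 5) were compared with normal mammary glands (n = 3) by RNA-seq, 8 of the 18 libraries of the series. The samples were taken by the genotype and tissue in their labels. Each B1/P mouse was a C57Bl/6 female with homozygous floxed Brca1 and floxed Trp53 alleles (Brca1fl/fl/Trp53fl/fl), and an adenovirus carrying Cre recombinase under the CMV promoter was delivered into the ducts of the adult mouse by way of the nipple. Deletion followed the cells the virus reached, and no cell type promoter restricted it. The glands came from wild type C57Bl/6 females; their age and whether they had been injected are not given in the sources used here. Tumors were numbered 1 to 5 for mice 225068, 225070, 246361, 255232 and 248662, and glands 1 to 3 for mice 330154, 330155 and 330156. Each library came from another mouse, so the p-values below rest on a spread between mice. That spread was estimated over all 18 libraries of the series, those of the tumors with T121 described next included. To set the tumors beside tissue that also lacks most of the gland, 5 B1/P/Rbf tumors (the same floxed alleles plus TgK18GT121) and 5 P/Rbf tumors (floxed Trp53 plus TgK18GT121, with Brca1 intact), also from C57Bl/6 females, were used. TgK18GT121 expresses T121, a fragment of the SV40 large T antigen that inactivates pRb, p107 and p130, from the keratin 18 promoter.

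A mammary gland is mostly a fat pad, crossed by ducts that have an inner luminal layer and an outer basal or myoepithelial layer, and its dissection often takes along skin muscle and a lymph node. Tumors that lack BRCA1 function are frequently basal-like, with the keratins of the outer layer, and some are metaplastic, in which carcinoma cells take on squamous, spindle or cartilage-like features. Epithelial-mesenchymal transition, EMT, is the loss of epithelial junctions with a gain of mesenchymal genes under transcription factors of the Snail, Zeb and Twist families. Cartilage is built from type II, IX and XI collagen and the proteoglycan aggrecan, under the transcription factor SOX9.

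Levels are given as CPM, the deposited RSEM expected counts scaled to a common library size after trimmed mean of M values (TMM) normalization. Fold changes are on the log2 scale, each ± its standard error (SE). They come from edgeR's quasi-likelihood test fitted to all 18 libraries. A gene was called when its Benjamini-Hochberg adjusted p over the 19186 tested genes was at most 0.05. Library totals ran from 27661173 to 37794889 expected counts. Relative to the glands, 3232 genes (16.8%) were called higher in B1/P tumors and 3249 (16.9%) lower, and the median log2 fold change over all tested genes was 0.12. That balance depended on the scaling: with library sizes in place of TMM, 5126 genes were called higher and 2440 lower, and the all-gene median was 0.47. Without gland 1 or gland 3, 1932 and 1788 genes were called higher. In bulk tissue, a change in the number of cells of a type and a change in RNA per cell cannot be told apart, for rises and for falls.

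The targeted genes were read first. Brca1 (GRCm38 chr11:101488764-101551955, minus strand), which repairs broken DNA, stood at 10.9, 21.03, 8.60, 27.9 and 8.13 CPM in tumors 1 to 5 and at 5.75, 4.61 and 5.99 CPM in the glands, all tumors above all glands (log2 fold change 1.49 ± 0.44, adjusted p = 0.015). Trp53 (chr11:69580359-69591873, plus strand), the p53 gene, stood at 14.1, 24.3, 20.2, 8.55 and 6.75 CPM in the tumors and 58.2, 71.8 and 54.4 CPM in the glands, without overlap (log2 fold change -2.05 ± 0.36, adjusted p = 0.00037). Counts over whole genes do not separate the deleted exons from those that remain, so neither level shows the extent of deletion. The authors report PCR products of the recombined Brca1 and Trp53 alleles in B1/P tumors. They also report loss of Brca1 RNA in the sequenced B1/P tumors by quantitative PCR, set against a P/Rbf tumor with intact Brca1. Among these named genes the call against the glands did not hold for Brca1 without gland 2 (adjusted p = 0.061).

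The largest difference from the gland was the loss of fat and skeletal muscle. Of the 28 tested adipocyte genes, 28 were called lower and none higher, against 16.9% of all genes. The groups did not overlap for 28, where 22.7% of all genes lay below the glands without overlap, and their median log2 fold change was -7.85. All 27 tested skeletal muscle genes were called lower, with a median of -8.24. In the glands the adipocyte list held 3.93% to 4.67% of all counts and the muscle list 3.88% to 7.72%, and in the tumors 0.0211% to 0.0387% and 0.00224% to 0.114%.

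Adipoq, the fat hormone adiponectin, was at 1728, 1343 and 2226 CPM in the glands and at 0.350, 0.592, 0.0503, 0.325 and 4.04 CPM in tumors 1 to 5 (log2 fold change -10.69 ± 1.79, adjusted p = 0.00024). Plin1, which coats the lipid droplet, was at 777, 837 and 920.1 CPM in the glands and 0.191, 0.178, 0.0754, 0.0591 and 2.52 CPM in the tumors (log2 fold change -10.46 ± 1.68, adjusted p = 0.00017). Lep, the hormone leptin, was at 55.7, 97.8 and 186 CPM in the glands and 0.254, 0.0592, 0, 0.177 and 0.126 CPM in the tumors (log2 fold change -9.83 ± 1.57, adjusted p = 0.00016). In all 3 genes every tumor lay below every gland, and for Adipoq and Plin1 tumor 5 was the highest of the tumors. The largest fall on the list was that of Cfd, the complement factor adipsin, from 10583, 9049 and 10777 CPM to 0.413, 1.54, 0.327, 1.06 and 22.2 CPM (log2 fold change -10.95 ± 2.09, adjusted p = 0.00074). Lipid synthesis genes fell too, 13 of 15 tested and none higher, beside the 16.9% of all genes called lower. Fasn, fatty acid synthase, was at 4688, 8876 and 5143 CPM in the glands and 296, 312, 216, 498 and 356 CPM in the tumors (log2 fold change -4.22 ± 0.44, adjusted p = 2.7e-06). Pnpla3, a lipid hydrolase of fat and liver, had the largest fall of that list (log2 fold change -8.22 ± 0.76). Of 9 brown fat genes 7 were called lower, against the same share. Ucp1, which uncouples respiration to make heat, varied in the glands themselves, 11.1, 163 and 160.2 CPM, and was at 0.159, 0, 0.126, 0.0296 and 0.473 CPM in the tumors (log2 fold change -9.45 ± 1.04, adjusted p = 4.6e-06). Cox8b, a respiratory chain subunit of brown fat and muscle, had no count in tumors 1 to 4 and 0.378 CPM in tumor 5.

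Muscle separated tumor 5 from the other tumors. Acta1, skeletal muscle actin, was at 12949, 6269 and 10805 CPM in the glands and 0.254, 0.622, 0.0503, 2.69 and 177 CPM in tumors 1 to 5 (log2 fold change -8.11 ± 1.88, adjusted p = 0.0033). Ckm, muscle creatine kinase, was at 6786, 3711 and 5855 CPM in the glands and 0.0318, 0, 0, 1.301 and 89.1 CPM in the tumors (log2 fold change -8.24 ± 1.91, adjusted p = 0.0033). Mylpf, a fast fiber myosin light chain, was at 2639, 1289 and 2579 CPM in the glands and 0.286, 0.237, 2.36, 1.15 and 28.5 CPM in the tumors (log2 fold change -8.38 ± 1.26, adjusted p = 9.4e-05). Every tumor lay below every gland, and tumor 5 was the highest for all 3. Taken over the 27 genes, tumor 5 held a median of 1.27% of the gland mean (0% to 2.95% by gene), while tumors 1 to 4 held medians of 0.0161% to 0.0396%. The adipocyte list in tumor 5 stood at a median of 0.56% of the gland mean, against 0.214% to 0.337% in tumors 1 to 4. Without tumor 5 the median log2 fold change of the muscle list was -11.84, with 27 of 27 still called lower. Myh7, the slow fiber myosin, was the 1 muscle gene with no count in tumor 5. With 2 counts over the tumors against 5824 over the glands its ratio was 5796-fold in favor of the glands (1604 to 47870, 95% interval for counting error only), and 873-fold without gland 1.

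**Figure D1:**
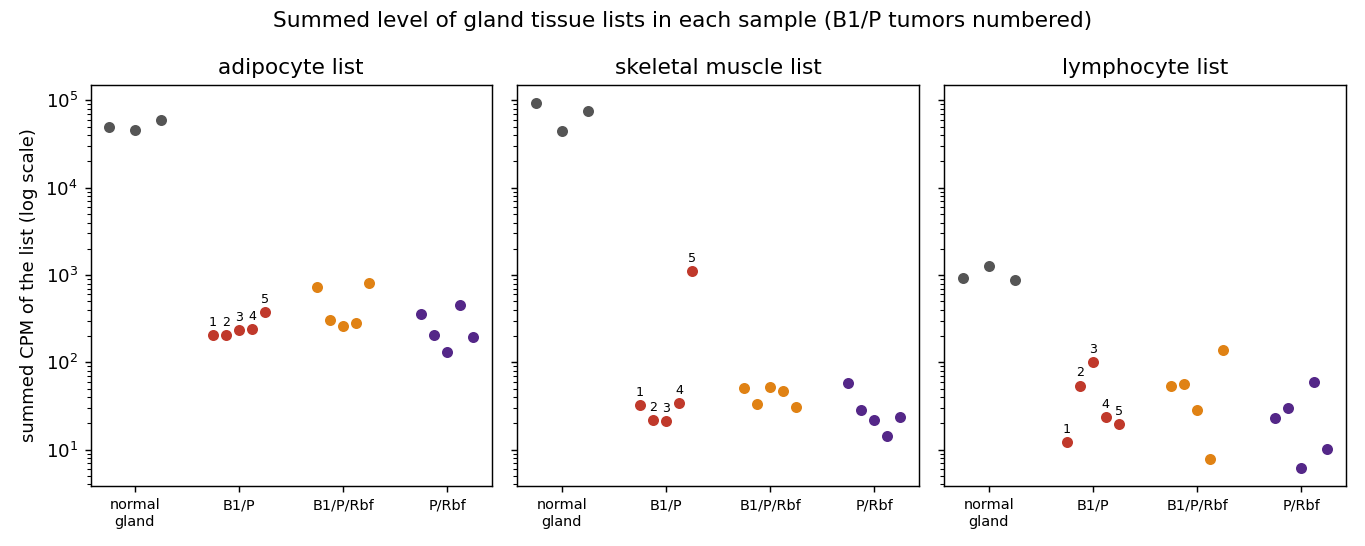
Summed CPM of the adipocyte, skeletal muscle and lymphocyte lists in each sample (log scale), by group, with B1/P tumors numbered. All tumors lie below the 3 glands, and tumor 5 stands at 1100 CPM for muscle where B1/P tumors 1 to 4 stand at 21.5 to 34.4 CPM.

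Lymphocyte genes formed a further part of the gland that the tumors lacked. Of 19 tested genes 18 were called lower, and for 19 of 19 every tumor was below every gland, as was the case for 22.7% of all genes. Cd3e, of the T cell receptor complex, was at 31.3, 44.1 and 28.9 CPM in the glands and 0.159, 2.49, 3.17, 0.946 and 0.599 CPM in the tumors (log2 fold change -4.55 ± 1.03, adjusted p = 0.0028). The largest fall of the list was in Cr2, the complement receptor of B cells and follicular dendritic cells, with 3 counts in all tumors together and 34.3, 50.2 and 36.5 CPM in the glands, a ratio of 2317 in favor of the glands (792 to 11240, 95% interval for counting error only). Glycam1, a mucin-like protein of lymph node venules and of milk, went from 354, 575 and 347 CPM to 0, 0.0889, 0.176, 0 and 0 CPM (log2 fold change -12.77 ± 0.89, adjusted p = 8.8e-08), one of the 5 largest falls of all genes. Of 15 endothelial genes 5 were called lower and none higher. Without tumor 4 or 5 or gland 1 or 2 it was 3 of 15, near the 16.9% of all genes called lower. Cldn5, a tight junction protein of vessels, was at 45.9, 58.7 and 59.2 CPM in the glands and 5.75, 7.97, 9.00, 4.85 and 6.68 CPM in the tumors (log2 fold change -2.99 ± 0.47, adjusted p = 0.00014). Cdh5, VE-cadherin, was not called (log2 fold change -0.62 ± 0.49). Pecam1, an endothelial adhesion molecule, was called lower (log2 fold change -1.25 ± 0.41, adjusted p = 0.024). Leave-one-out fits ended the call against the glands, of the genes named here, for Pecam1 without tumor 4 or 5 or gland 1 or 2 (adjusted p = 0.052 to 0.075).

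The 100 largest falls, among genes called, without overlap and at 5 CPM or more in the glands, held 13 adipocyte, 5 skeletal muscle, 3 brown fat and 3 lymphocyte list genes, and 7 of the 12 tested Mup genes. Lrrc30 had no count in any tumor and 32.4, 12.8 and 61.4 CPM in the glands, which makes it at least 401-fold lower against a floor of 3 counts per library, and at least 255-fold without gland 3. Mup22, Mup16 and Mup10, which encode major urinary proteins, were among the 5 largest falls. Mup22 was at 1740.2, 1466 and 1578 CPM in glands 1 to 3 and 0, 0.0592, 0.101, 0 and 0.851 CPM in the tumors. The Mup genes are near-identical copies among which RSEM divides reads, so the level of any single one is uncertain.

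**Figure D2:**
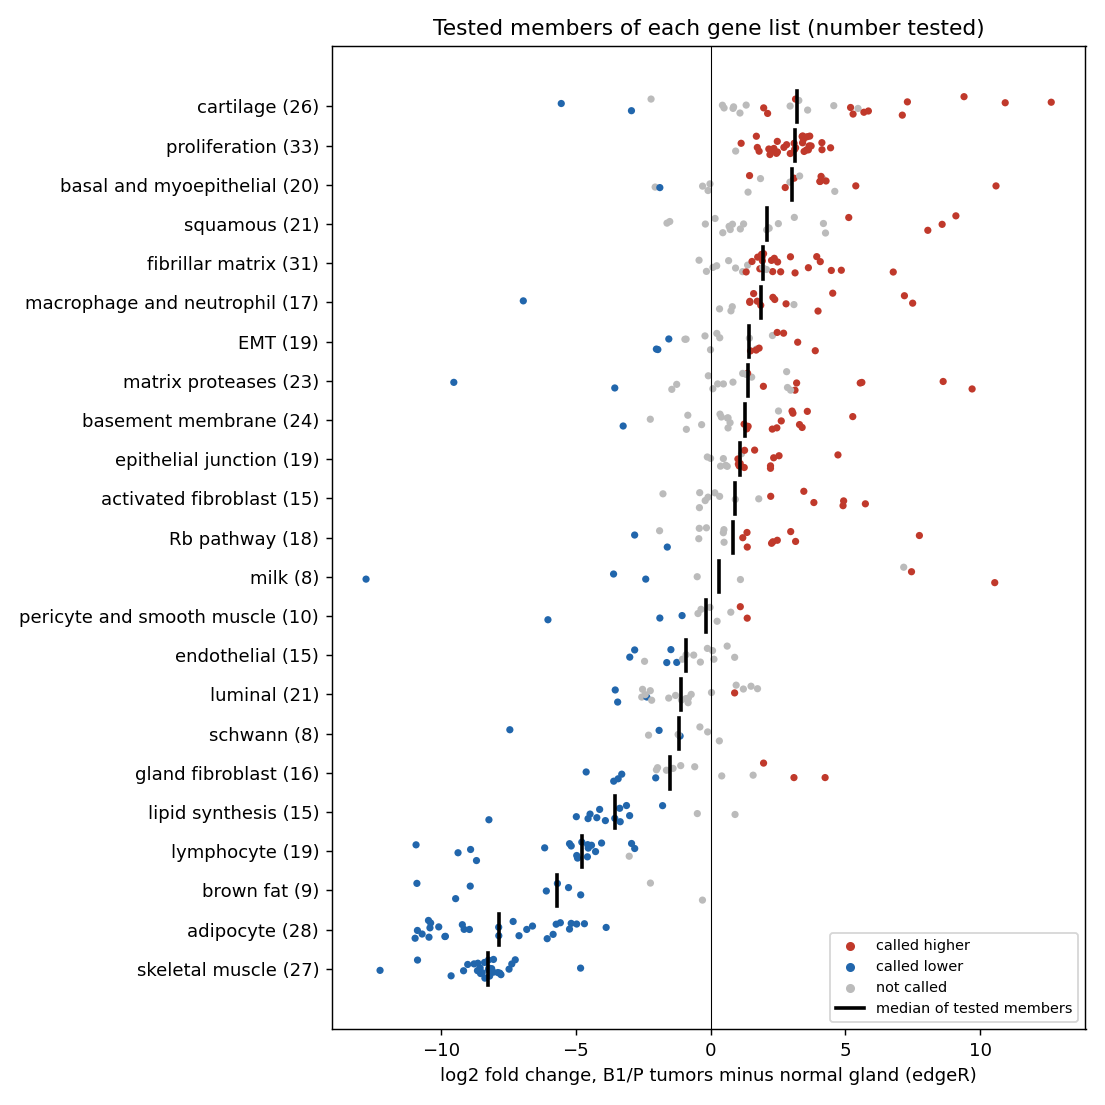
Log2 fold change (B1/P tumors minus normal gland) of each tested member of 23 gene lists, one point per gene and colored by its call, with the list median as a bar. Skeletal muscle and adipocyte medians lie at -8.24 and -7.85, and cartilage and proliferation medians at 3.21 and 3.12.

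Cell cycle genes rose together. Of 33 proliferation genes 32 were called higher and none lower, against 16.8% of all genes, with a median log2 fold change of 3.12. Mki67, the Ki-67 antigen of cycling cells, was at 275, 218, 519, 582 and 414 CPM in tumors 1 to 5 and 30.2, 34.4 and 29.5 CPM in the glands (log2 fold change 3.68 ± 0.52, adjusted p = 5.5e-05). Top2a, topoisomerase II alpha, was at 242, 324, 137, 410.4 and 269 CPM in the tumors and 25.1, 23.8 and 25.9 CPM in the glands (log2 fold change 3.47 ± 0.39, adjusted p = 5.8e-06). For 33 of 33 genes every tumor was above every gland, which held for 18.7% of all genes. E2f2, an E2F transcription factor, was the member not called (log2 fold change 0.93 ± 0.44, adjusted p = 0.11). Tumors with T121 stood higher again. Against B1/P/Rbf tumors 11 of the 33 were called lower in B1/P tumors, where 7.36% of all genes were, and against P/Rbf tumors 16 were, where 8.43% were; none was called higher in either. These comparisons share the B1/P tumors, so they are given side by side.

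Several regulators of the Rb pathway moved with the cycle genes. Cdkn2a, which encodes the tumor suppressors p16 and p19Arf, was at 128, 119, 48.8, 104 and 91.8 CPM in the tumors and 0.430, 0.491 and 0.440 CPM in the glands (log2 fold change 7.75 ± 0.52, adjusted p = 8.8e-08). Ccnd1, cyclin D1, which activates CDK4 and CDK6, was at 434, 429, 173, 1109 and 1212 CPM in the tumors and 131, 131 and 144 CPM in the glands (log2 fold change 2.31 ± 0.81, adjusted p = 0.036), with tumors 4 and 5 the highest. Cdk6 was at 363, 125, 374, 99.5 and 70.9 CPM in the tumors and 25.6, 22.3 and 21.6 CPM in the glands (log2 fold change 3.16 ± 0.76, adjusted p = 0.0044), with tumors 1 and 3 the highest. Both were also higher than in B1/P/Rbf tumors (log2 fold changes 4.01 and 3.75, adjusted p = 0.0017 and 0.0013). The 2 falls on this list were Rb1 itself, at 21.1, 22.8, 26.01, 26.3 and 20.4 CPM in the tumors against 67.8, 69.0 and 75.8 CPM in the glands (log2 fold change -1.60 ± 0.35, adjusted p = 0.002), and Cdkn2c, the CDK inhibitor p18Ink4c (log2 fold change -2.81 ± 0.36, adjusted p = 2.3e-05). In all, 9 of 18 genes were called higher and 2 lower, where 16.8% and 16.9% of all genes were, so the share called lower was below that of all genes. Rbl1, the p107 gene, was called higher (log2 fold change 1.20 ± 0.36). Named genes whose call against the glands was lost with 1 library left out were Ccnd1 without tumor 4 or 5 or gland 1, 2 or 3 (adjusted p = 0.066 to 0.11) and Rbl1 without gland 1, 2 or 3 (adjusted p = 0.055 to 0.062).

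Collagen and other fibrillar matrix genes rose in the tumors. Of 31 fibrillar matrix genes 21 were called higher and none lower, where 16.8% of all genes were called higher, with a median log2 fold change of 1.94, and 12 to 13 were called higher when 1 gland was left out. Against B1/P/Rbf and P/Rbf tumors 11 and 12 were called higher and none lower, beside 9.29% and 10.8% of all genes. Without tumor 2 it was 6 and 9, and without tumor 3 it was 7 against B1/P/Rbf tumors. In those comparisons 5 and 7 of 10 pericyte and smooth muscle genes were called higher too, with the levels given below beside the EMT genes, and their part was not tested. Spp1, osteopontin, had the largest rise, from 3.71, 7.72 and 4.98 CPM in the glands to 316, 2109.8, 127, 323 and 127 CPM in tumors 1 to 5 (log2 fold change 6.78 ± 1.10, adjusted p = 0.00018). Col1a1, a chain of type I collagen, was at 341, 179 and 289 CPM in the glands and 649, 3608, 1728, 846 and 740.1 CPM in the tumors (log2 fold change 2.49 ± 0.75, adjusted p = 0.017). Tumor 2 was the highest for both. Vcan, the proteoglycan versican, was at 389, 203, 143, 273 and 235 CPM in the tumors and 14.2, 5.596 and 13.6 CPM in the glands (log2 fold change 4.48 ± 0.83, adjusted p = 0.00059). Col12a1, a collagen that decorates fibrils, had a log2 fold change of 4.85 ± 0.91, and Loxl3, a lysyl oxidase that cross-links collagen, of 4.07 ± 0.47. Lox, the founding member of that enzyme family, was called too (log2 fold change 2.31 ± 0.73, adjusted p = 0.023). Col3a1, type III collagen, was not called. The glands were at 1231, 676 and 1359 CPM and the tumors at 909, 5394, 2193, 965 and 904 CPM, with overlap (log2 fold change 0.93 ± 0.75, adjusted p = 0.36). Sparc, a collagen-binding glycoprotein, overlapped likewise (log2 fold change 0.23 ± 0.49). Of the genes named here, with 1 library left out at a time, the call against the glands was lost for Col1a1 without gland 2 or 3 (adjusted p = 0.058 to 0.07) and Lox without tumor 2 or gland 1, 2 or 3 (adjusted p = 0.067 to 0.081).

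Of the 16 gland fibroblast genes 5 were called lower, where 16.9% of all genes were, and 3 higher, near the 16.8% of all genes (1 higher without gland 2). Of the 15 activated fibroblast genes 6 were called higher and none lower, against the same shares. With 1 library left out, gland fibroblast genes called lower ranged from 2 (without tumor 1, 4 or 5 or gland 1 or 3) to 7 (without tumor 2). Gsn, gelsolin, fell from 3951, 3504 and 4721 CPM to 95.6, 204, 105, 105 and 320.2 CPM (log2 fold change -4.61 ± 0.47, adjusted p = 2.3e-06). Fbln1, the matrix protein fibulin 1, rose from 9.42, 3.37 and 7.92 to 76.4, 50.5, 259, 123 and 148 CPM (log2 fold change 4.25 ± 0.85, adjusted p = 0.0011). Tnc, tenascin C, a glycoprotein of remodeling stroma, was at 149.6, 1642, 114, 335 and 355 CPM in the tumors and 9.93, 11.0 and 8.12 CPM in the glands (log2 fold change 5.74 ± 0.96, adjusted p = 0.00023), with tumor 2 far above the others. Fap, a marker of activated fibroblasts, was not called, with 5.53, 15.6, 13.5, 6.95 and 8.76 CPM in the tumors and 15.0, 9.85 and 15.3 CPM in the glands. Neither were Postn, periostin (log2 fold change 0.92 ± 0.44), Acta2, smooth muscle actin (-0.09 ± 0.56), Dcn, decorin (-1.39 ± 0.91), nor Pdgfra, a growth factor receptor of fibroblasts (1.58 ± 0.89), though all 5 tumors were above the glands for Pdgfra. Of 10 pericyte and smooth muscle genes 2 were called higher and 3 lower, where 16.8% and 16.9% of all genes were. Pdgfrb, a pericyte receptor, was higher (log2 fold change 1.36 ± 0.37, adjusted p = 0.0098). Des, the muscle filament desmin, fell from 1289.7, 728 and 1032 CPM to 6.99, 12.4, 15.6, 7.78 and 35.1 CPM (log2 fold change -6.03 ± 0.54, adjusted p = 7.8e-07). Rgs5 was not called (log2 fold change 0.25 ± 0.44). How much of the matrix RNA came from carcinoma cells and how much from stroma was not tested.

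Basement membrane genes, which build the sheet under epithelia and vessels, were called higher in 12 of 24 and lower in 1, beside 16.8% and 16.9% of all genes. Col4a1, a type IV collagen chain, was at 1514, 1005, 1690.4, 1588 and 1523 CPM in the tumors and 557, 507 and 665 CPM in the glands (log2 fold change 1.34 ± 0.34, adjusted p = 0.0057). It was also higher than in B1/P/Rbf tumors (log2 fold change 1.71 ± 0.29, adjusted p = 0.0012) and P/Rbf tumors (2.15 ± 0.29, adjusted p = 0.00031). Lama3, a laminin alpha chain, was at 88.1, 65.5, 99.5, 36.6 and 88.1 CPM in the tumors and 8.72, 6.15 and 6.64 CPM in the glands (log2 fold change 3.40 ± 0.69, adjusted p = 0.0012). It was not called against either group with T121. Lama1, an embryonic laminin chain, was high in tumor 3 (162 CPM) and tumor 5 (32.8 CPM) and at 4.90, 3.52 and 2.99 CPM in tumors 1, 2 and 4. Among these named genes the call against the glands did not hold for Lama1 without tumor 3 or 5 or gland 1, 2 or 3 (adjusted p = 0.056 to 0.21). Col4a3, which was called lower than in the gland, lost its call without tumor 3, 4 or 5 or gland 1, 2 or 3 (adjusted p = 0.053 to 0.083). Its call was also lost with limma-voom after quantile normalization (adjusted p = 0.07).

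Of 23 matrix proteases and inhibitors 8 were called higher and 2 lower, where 16.8% and 16.9% of all genes were. Of 17 macrophage and neutrophil genes, described further below, 12 were called higher too. Tumor 2 had the highest sum of both lists, 2232 CPM for proteases and inhibitors and 4374 CPM for macrophage and neutrophil genes. The part of these cells in the protease levels was not tested. Mmp13 (collagenase 3, chr9:7272514-7283331, plus strand) was at 27.1, 339, 50.02, 35.96 and 81.1 CPM in the tumors and 0.195, 0.360 and 0.237 CPM in the glands (log2 fold change 8.63 ± 1.43, adjusted p = 0.00022). Mmp10 (stromelysin 2), at 4.35, 25.1, 21.9, 4.26 and 8.01 CPM in the tumors, had 1 count in the glands together against 2254 in the tumors, a ratio of 1132 (203 to 44749, 95% interval for counting error only). Mmp12, a macrophage elastase, was also higher (log2 fold change 5.61 ± 0.93, adjusted p = 0.00022), and so was Timp1, a protease inhibitor (log2 fold change 3.19 ± 0.73, adjusted p = 0.0029). Mmp9, a gelatinase, was called with overlap between the groups, at 4.32, 115, 14.2, 25.4 and 36.5 CPM in the tumors and 6.41, 3.01 and 3.96 CPM in the glands (log2 fold change 3.13 ± 1.03, adjusted p = 0.026). Mmp3 (stromelysin 1) was not called, at 7.25, 103, 87.5, 28.2 and 52.96 CPM in the tumors and 22.8, 10.3 and 24.9 CPM in the glands (log2 fold change 1.53 ± 1.29). Timp4, another inhibitor, fell with the fat genes, from 15.8, 24.2 and 31.7 CPM to 0.0318, 0.0296, 0.0503, 0.0296 and 0 CPM (log2 fold change -9.52 ± 0.91, adjusted p = 1.3e-06). Against B1/P/Rbf tumors 1 of the 23 was called higher, where 9.29% of all genes were. Against P/Rbf tumors 1 was called lower, where 8.43% of all genes were. Both counts went to 0 with any 1 gland left out, and also without some single tumors, tumors 1 and 3 among them. Without tumor 2, 3 were called lower than in P/Rbf tumors, and 1 was called lower than in B1/P/Rbf tumors. Leave-one-out fits ended the call against the glands, of the genes named here, for Mmp9 without tumor 2 or gland 1, 2 or 3 (adjusted p = 0.059 to 0.094). The Mmp9 call was also lost with limma-voom after quantile normalization, which changes test and scaling together (adjusted p = 0.13).

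AP-1, the dimer of FOS and JUN proteins, is a known regulator of these proteases, and its letters TGANTCA were looked for on both strands in RefSeq promoters (GRCm38.p6, 250 bases before to 50 after each start). They were found for 5 of the 18 matrix protease genes with a promoter in the table (27.8%; Mmp3, Mmp7, Mmp10, Mmp12 and Mmp13), and for 8.97% of all 27025 genes. All 5 lie in 1 region of chromosome 9, with matches between bases 7272453 and 7692060, so they are neighbors and not separate draws from the genome. The 60 bases around the match are shown for the collagenase and both stromelysins described above, read 5′ to 3′ on the plus strand with the match in capitals.
Mmp13, chr9:7272453-7272512: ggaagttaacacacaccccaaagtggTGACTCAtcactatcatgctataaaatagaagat
Mmp10, chr9:7502253-7502312: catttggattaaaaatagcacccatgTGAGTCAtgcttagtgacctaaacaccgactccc
Mmp3, chr9:7445750-7445809: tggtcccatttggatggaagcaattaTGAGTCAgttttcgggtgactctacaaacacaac
The matches begin 35, 63 and 46 bases before the start site. Mmp13 and Mmp10 were called higher and Mmp3 was not, so the letters are shared by genes with different calls. The letters TTTGAA, the cell cycle homology region of mitotic genes, were found for 11 of 25 proliferation genes (44%) and 20.2% of all genes. A match is a description of the letters and was not tested for binding.

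Of 19 tested EMT genes, 7 were called higher than in the gland and 3 lower, where 16.8% and 16.9% of all genes were. The median of the fitted log2 fold changes was 1.44, although the median over the list in each single tumor relative to the gland mean lay between -0.04 and 0.50. The median also moved with single tumors, to 0.34 without tumor 4, and without gland 2 or gland 3 the genes called higher went from 7 to 4. Vim, the mesenchymal filament vimentin, was at 400.2, 703, 293, 469.9 and 298 CPM in the tumors and 430.3, 396 and 472 CPM in the glands, with overlap (log2 fold change 0.00 ± 0.38, a sign that changed with the scaling). Among transcription factors, Foxc1 rose from 3.75, 3.76 and 2.67 CPM to 71.7, 78.0, 41.9, 28.6 and 30.8 CPM (log2 fold change 3.88 ± 0.97, adjusted p = 0.0053). Snai2, Slug, rose from 5.35, 4.38 and 4.71 to 47.7, 4.41, 47.4, 28.9 and 98.0 CPM (log2 fold change 3.23 ± 0.80, adjusted p = 0.0052), with tumor 2 at the gland level for Snai2. Zeb1 and Zeb2 fell, Zeb1 from 64.4, 53.6 and 65.6 to 12.9, 24.8, 18.9, 12.9 and 9.62 CPM (log2 fold change -1.95 ± 0.38, adjusted p = 0.00084). Zeb2 had a log2 fold change of -1.55 ± 0.35, and Twist2 fell too (log2 fold change -2.01 ± 0.69, adjusted p = 0.033). Twist1, at 2.07, 3.94, 15.6, 3.84 and 12.2 CPM in the tumors and 14.1, 11.1 and 17.2 CPM in the glands, was not called (log2 fold change -0.91 ± 0.66). Snai1 and Prrx1 were not called either (log2 fold changes 1.70 ± 0.85 and -0.95 ± 0.39). Cdh2, N-cadherin, was called higher with overlap, at 14.2, 24.6, 4.30, 129 and 20.3 CPM in tumors 1 to 5 (log2 fold change 2.71 ± 0.95, adjusted p = 0.035), and tumor 4 was the highest. Axl, a receptor kinase, and Tgfbi, a matrix protein induced by TGF-beta, were called higher as well (log2 fold changes 1.69 ± 0.53 and 1.80 ± 0.67). Named genes whose call against the glands was lost with 1 library left out were Twist2 without tumor 1, 3, 4 or 5 or gland 1, 2 or 3 (adjusted p = 0.057 to 0.086), Cdh2 without tumor 4 or gland 1, 2 or 3 (adjusted p = 0.089 to 0.15), Axl without gland 2 or 3 (adjusted p = 0.072 to 0.085) and Tgfbi without tumor 2 or 3 or gland 1, 2 or 3 (adjusted p = 0.1 to 0.14).

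The same genes were also set beside tumors that lack fat and muscle. Their median log2 fold changes were 1.45 against B1/P/Rbf and 1.43 against P/Rbf tumors, close to the 1.44 against the gland. In B1/P against B1/P/Rbf tumors 8 of the 19 EMT genes were called higher and 1 lower, where 9.29% of all genes were higher, and against P/Rbf tumors 9 were higher and none lower, where 10.8% were. Vim, at medians of 108 CPM (B1/P/Rbf tumors) and 129 CPM (P/Rbf tumors), was higher in B1/P tumors (log2 fold change 1.79 ± 0.34, adjusted p = 0.0025, and log2 fold change 1.62 ± 0.34, adjusted p = 0.0044). Twist1, with medians of 0.800 and 1.55 CPM there, was higher too (log2 fold change 2.55 ± 0.62, adjusted p = 0.011, and log2 fold change 2.39 ± 0.62, adjusted p = 0.013). Vim and Twist1, which did not pass the test against the gland, thus passed it against both tumor groups. Zeb1, Zeb2 and Twist2, called lower than in the gland, had positive log2 fold changes against B1/P/Rbf tumors, as did 18 of the 19 genes. Against P/Rbf tumors 16 of the 19 genes had positive log2 fold changes, and against the gland 13 did. Of 10 pericyte and smooth muscle genes 5 and 7 were called higher than in B1/P/Rbf and P/Rbf tumors and none lower, and the list summed to 631 to 1063 CPM in B1/P tumors, 272.7 to 744 CPM in B1/P/Rbf and 260.9 to 481 CPM in P/Rbf tumors. Of 16 gland fibroblast genes 2 and 7 were called higher (4 against P/Rbf tumors without tumor 2) and 1 and 1 lower, at summed levels of 741 to 1264, 392.5 to 1551 and 491 to 1740 CPM. Activated fibroblast genes were called higher in 3 and 2 of 15 (1 against P/Rbf tumors without tumor 2, 3, 4 or 5 or any 1 gland). Of all genes 9.29% and 10.8% were called higher in these comparisons. The part of these cells in the EMT and fibrillar matrix differences from both tumor groups was not tested.

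No epithelial junction gene was called lower than in the gland. Of 19 junction genes 12 were called higher than in the gland, where 16.8% of all genes were. Against B1/P/Rbf and P/Rbf tumors 7 and 9 were called lower and none higher, beside 7.36% and 8.43% of all genes called lower. Without gland 1 or gland 3 the genes called higher than in the gland went from 12 to 8 and 7. Cdh1, E-cadherin, was at 371, 394, 208, 328 and 422 CPM in B1/P tumors and 157, 187 and 161 CPM in glands (log2 fold change 1.03 ± 0.35, adjusted p = 0.031), with medians of 1214 and 834 CPM in B1/P/Rbf and P/Rbf tumors (log2 fold change -1.67 ± 0.30, adjusted p = 0.0018, and log2 fold change -1.51 ± 0.30, adjusted p = 0.0032). Epcam, an epithelial adhesion molecule, was at 846, 722, 259.7, 313 and 286 CPM in B1/P tumors and 199.6, 215 and 197 CPM in glands (log2 fold change 1.25 ± 0.38, adjusted p = 0.017). Grhl2, a transcription factor that maintains epithelium, was at 109.8, 83.7, 119, 125 and 120.3 CPM in the tumors and 22.7, 24.97 and 23.9 CPM in the glands (log2 fold change 2.22 ± 0.20, adjusted p = 6.7e-07). All 5 B1/P tumors were above all 3 glands for Cdh1, Epcam and Grhl2. The part of epithelial cell content in these rises over the gland was not tested. Of the genes named here, with 1 library left out at a time, the call against the glands was lost for Cdh1 without tumor 2 or 5 or gland 1, 2 or 3 (adjusted p = 0.05 to 0.099) and Epcam without gland 1 or 3 (adjusted p = 0.062 to 0.068). With log2 CPM of at least 6 in 6 samples required, Cdh1 was not called (adjusted p = 0.074).

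Cartilage genes set the B1/P tumors apart from the gland and from both other tumor groups. Of 26 tested genes (of 30 on the list; Matn1, Hapln1, Epyc and Ibsp were too low to test) 12 were called higher than in the gland and 2 lower, with a median log2 fold change of 3.21, where 16.8% and 16.9% of all genes were, so the share called lower was below that of all genes. In the tumor comparisons, against B1/P/Rbf 16 were called higher, where 9.29% of all genes were, and against P/Rbf tumors 15, where 10.8% were, with none lower in either. The summed level of the list was 189 to 211 CPM in the glands, 94.5 to 210.1 CPM in B1/P/Rbf tumors, 137 to 346 CPM in P/Rbf tumors, and 4035, 794, 1743, 2444 and 976 CPM in B1/P tumors 1 to 5, so that every B1/P tumor was above every other sample.

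Col2a1 (chr15:97975602-98004695, minus strand), the main collagen of cartilage, was at 386, 101, 16.8, 24.8 and 2.71 CPM in tumors 1 to 5 and at 0.195, 0.0327 and 0.237 CPM in the glands (log2 fold change 9.40 ± 1.71, adjusted p = 0.0005). Acan, aggrecan, had no count in any gland and was at 15.2, 15.8, 4.12, 81.6 and 0.946 CPM in the tumors, at least 223-fold higher against a floor of 3 counts per library and at least 85.2-fold without tumor 4. Col10a1, the collagen of hypertrophic cartilage, also had no count in the glands and was at 16.9, 1.33, 0.302, 13.7 and 3.85 CPM, at least 68.2-fold higher and at least 45.3-fold without tumor 1. In these 3 genes every tumor was above every gland. Type IX collagen chains reached higher levels. Col9a1 was at 62.7, 134, 62.2, 943 and 21.8 CPM in the tumors and 1.09, 2.42 and 1.12 CPM in the glands (log2 fold change 7.30 ± 1.43, adjusted p = 0.00094). Col9a3 was at 1866, 38.5, 903, 431 and 434 CPM in the tumors and 5.08, 7.92 and 2.91 CPM in the glands (log2 fold change 7.11 ± 1.06, adjusted p = 8.3e-05). Col11a1, of type XI collagen, was at 144, 25.3, 51.6, 341 and 143 CPM in the tumors and 3.09, 5.37 and 3.08 CPM in the glands (log2 fold change 5.19 ± 1.13, adjusted p = 0.0021). The highest tumor differed between genes, tumor 1 for Col2a1 and Col9a3 and tumor 4 for Acan, Col9a1 and Col11a1.

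Of the collagens just described, Col2a1, Col9a1, Col9a3 and Col11a1 were called higher than in both groups of tumors with T121. Col2a1 had medians of 0.127 CPM (B1/P/Rbf tumors) and 0.460 CPM (P/Rbf tumors) (log2 fold change 9.23 ± 1.32, adjusted p = 0.00048, and log2 fold change 8.02 ± 1.24, adjusted p = 0.00081). Col9a1 had medians of 0.0551 and 0.0506 CPM (log2 fold change 10.18 ± 1.298, adjusted p = 0.00023, and log2 fold change 11.96 ± 1.43, adjusted p = 0.00016). Col9a3 had log2 fold changes of 7.84 ± 0.86 and 7.38 ± 0.84, and Col11a1 of 4.31 ± 0.86 and 3.79 ± 0.84. Col10a1 was not called, with medians of 9.02 and 2.62 CPM (log2 fold changes 0.07 ± 0.99 and 1.95 ± 1.03). Sox9, the transcription factor of cartilage and of mammary progenitors, was at 126, 58.2, 61.5, 50.1 and 55.3 CPM in B1/P tumors and 15.8, 22.1 and 15.8 CPM in glands (log2 fold change 1.97 ± 0.54, adjusted p = 0.01). It was not called against either tumor group. Sox6, a partner of SOX9, was lower than in the gland, 10.46, 0.681, 1.96, 21.6 and 18.9 CPM against 101, 54.8 and 89.4 CPM (log2 fold change -2.93 ± 0.77, adjusted p = 0.0077), yet higher than in B1/P/Rbf tumors (log2 fold change 5.69 ± 0.85, adjusted p = 0.00062). Cytl1, a cytokine-like protein of cartilage, fell from 7.15, 3.40 and 6.87 CPM to 0, 0, 0.302, 0.296 and 0 CPM (log2 fold change -5.53 ± 1.28, adjusted p = 0.0032). Matn4, matrilin 4, rested on tumors 1 and 4, at 406, 1.10, 1.06, 26.4 and 1.89 CPM against 1.52, 1.47 and 1.52 CPM in the glands (log2 fold change 5.85 ± 1.85, adjusted p = 0.022). Comp, a cartilage matrix protein, was not called against the gland, with 23.0 CPM in tumor 4 and 0.378 to 3.64 CPM in the other tumors. Among these named genes the call against the glands did not hold for Sox9 without gland 1 or 3 (adjusted p = 0.05 to 0.053) and Matn4 without tumor 1 or gland 1, 2 or 3 (adjusted p = 0.076 to 0.15). Matn4 was not called with limma-voom after quantile normalization either (adjusted p = 0.24). Without gland 3 the number of cartilage genes called higher dropped from 12 to 7 and without gland 1 to 9. Without tumor 1 the number was 12, with Matn4 no longer called and Comp called (adjusted p = 0.048).

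**Figure D3:**
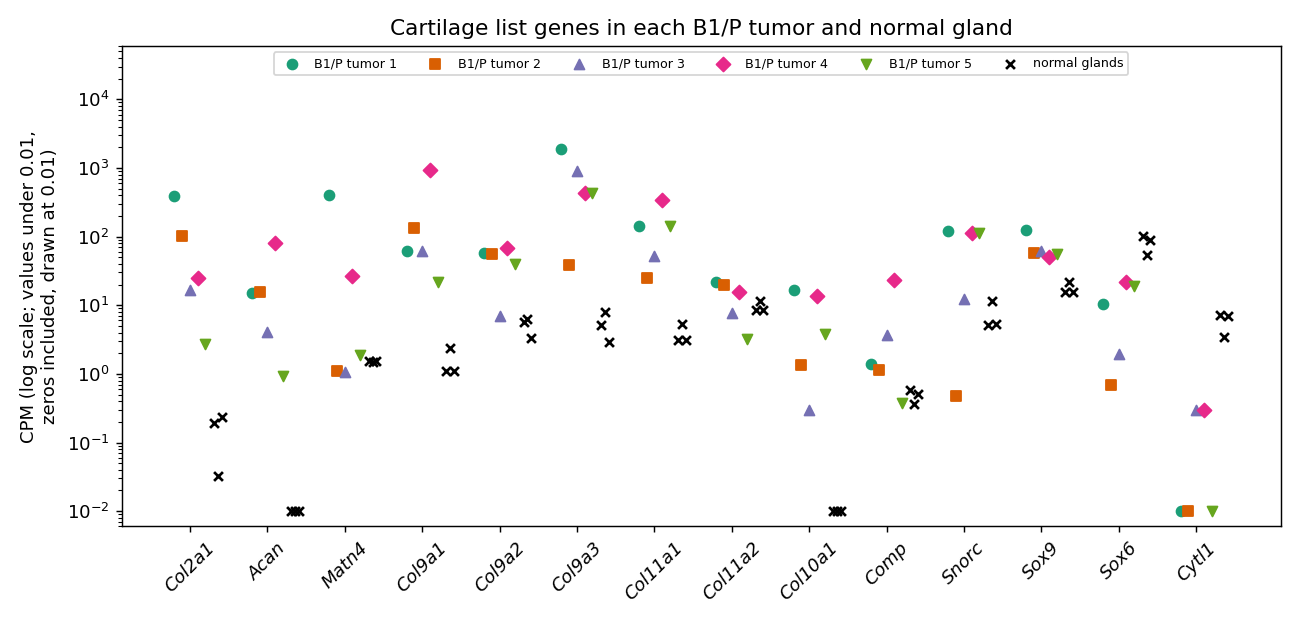
CPM of 14 cartilage list genes in each B1/P tumor and normal gland (log scale, values under 0.01 drawn at 0.01). Col2a1, Acan, Col9a1, Col9a2, Col9a3, Col11a1, Col10a1 and Sox9 lie above the glands in all 5 tumors, and Sox6 and Cytl1 lie below them.

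Of 20 basal and myoepithelial genes 9 were called higher than in the gland and 1 lower, where 16.8% and 16.9% of all genes were, with a median log2 fold change of 3.02, and 3 to 5 were called higher when 1 gland was left out. Here too the part of epithelial cell content in the rises over the gland was not tested. In the comparisons with B1/P/Rbf and P/Rbf tumors 8 and 6 were called higher and none lower, where 9.29% and 10.8% of all genes were called higher. Without tumor 3 it was 6 and 4. Sox10, a transcription factor of neural crest and of mammary stem cells, was at 439, 164, 428, 612 and 493 CPM in B1/P tumors and 22.0, 27.4 and 27.1 CPM in glands (log2 fold change 4.07 ± 1.27, adjusted p = 0.02). B1/P/Rbf and P/Rbf tumors had medians of 0.170 and 0.0790 CPM (log2 fold change 9.35 ± 1.303, adjusted p = 0.00042, and log2 fold change 9.91 ± 1.34, adjusted p = 0.00031). Itgb4, the integrin of hemidesmosomes, was at 585, 369.9, 635, 499 and 635 CPM in the tumors and 31.2, 28.4 and 24.2 CPM in the glands (log2 fold change 4.28 ± 0.37, adjusted p = 6.7e-07). Krt14, a basal keratin, was at 453, 102, 584, 269 and 605 CPM in the tumors and 38.8, 15.7 and 15.9 CPM in the glands (log2 fold change 4.10 ± 1.32, adjusted p = 0.024). Krt5, its partner, was high in 4 tumors and had no count in tumor 2, 436, 0, 824, 334 and 854 CPM against 50.03, 14.0 and 18.1 CPM in the glands, and was not called (log2 fold change 4.16 ± 2.36). A level of 0 counts there allows up to 0.0889 CPM, for counting error only. Trp63, the p63 gene of basal cells, was also lowest in tumor 2, 74.9, 7.91, 268, 86.9 and 306 CPM in tumors 1 to 5, and not called (log2 fold change 2.94 ± 1.20). Trp63 was called higher with DESeq2 (adjusted p = 0.011) and, in edgeR, with library sizes in place of TMM (0.041), with only the 8 samples (0.042) and without tumor 2 (0.033). Myh11, smooth muscle myosin, was the member called lower, at 15.3, 22.1, 20.4, 4.02 and 4.10 CPM against 61.2, 39.7 and 44.7 CPM (log2 fold change -1.88 ± 0.68, adjusted p = 0.042). Leave-one-out fits ended the call against the glands, of the genes named here, for Sox10 without gland 1, 2 or 3 (adjusted p = 0.069 to 0.082), Krt14 without gland 1, 2 or 3 (adjusted p = 0.054 to 0.098) and Myh11 without tumor 1, 4 or 5 or gland 1, 2 or 3 (adjusted p = 0.06 to 0.13).

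Esr1, the estrogen receptor, was at 2.80, 6.63, 9.83, 12.6 and 20.9 CPM in B1/P tumors and 119, 103 and 144 CPM in glands (log2 fold change -3.53 ± 0.56, adjusted p = 0.00015), the largest fall among 21 luminal genes, of which 3 were called lower and 1 higher, shares below the 16.9% and 16.8% of all genes; without tumor 5 it was 5 lower. Against B1/P/Rbf and P/Rbf tumors 7 and 9 of the list were called lower, beside 7.36% and 8.43% of all genes, and 0 and 1 higher, beside 9.29% and 10.8%. Esr1 was also lower than in B1/P/Rbf (log2 fold change -4.10 ± 0.54, adjusted p = 0.0003) and P/Rbf tumors (log2 fold change -2.33 ± 0.50, adjusted p = 0.0051). Erbb2, the HER2 receptor, was the member called higher, at 131, 132, 102, 109 and 122 CPM against 66.7, 64.0 and 61.7 CPM (log2 fold change 0.89 ± 0.25, adjusted p = 0.012). Krt18, a luminal keratin, overlapped with the gland (log2 fold change -0.82 ± 0.47) and was lower than in P/Rbf tumors (log2 fold change -2.74 ± 0.44, adjusted p = 0.00095). Elf5, a factor of luminal progenitors, was not called against any group. All 5 tumors therefore lay below every gland for Esr1 and above every gland for Sox10 and Itgb4. Named genes whose call against the glands was lost with 1 library left out were Erbb2 without gland 3 (adjusted p = 0.057). Erbb2 also lost its call with the stricter filter, log2 CPM of at least 6 in 6 samples (adjusted p = 0.062).

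**Figure D4:**
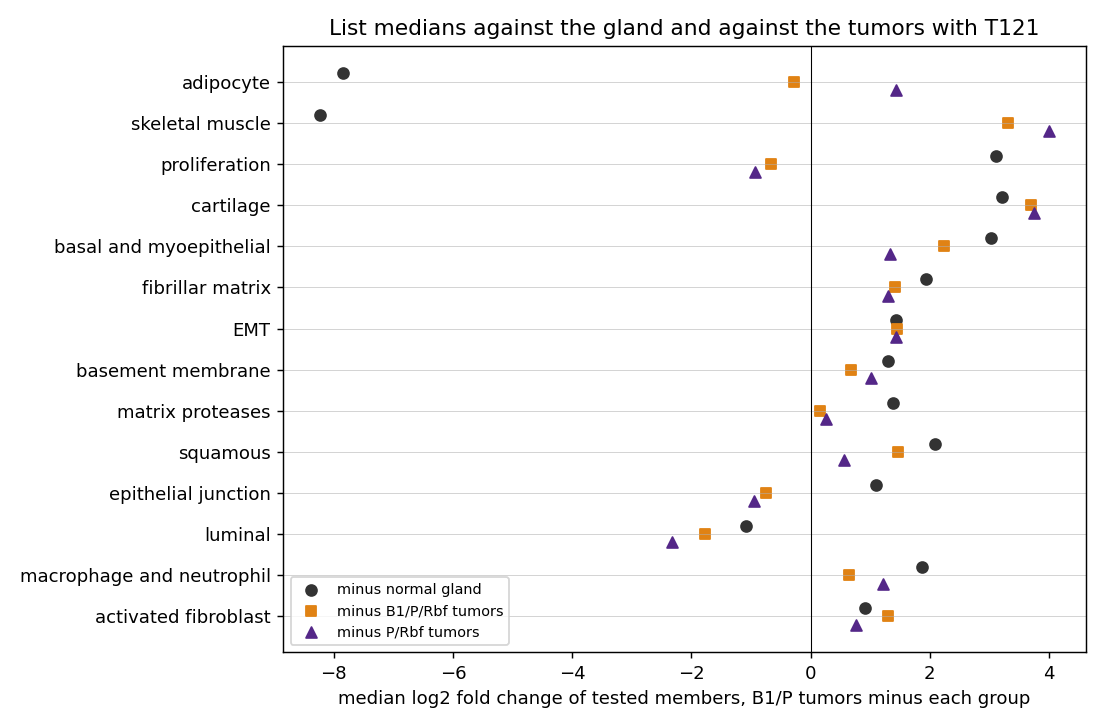
Median log2 fold change of the tested members of 14 lists in B1/P tumors minus the normal gland, B1/P/Rbf tumors and P/Rbf tumors. Cartilage medians are 3.21, 3.69 and 3.75, whereas proliferation medians are 3.12, -0.67 and -0.93 and the adipocyte medians -7.85, -0.28 and 1.44 (-1.44 and 0.25 against the tumor groups without tumor 5).

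The adipocyte and muscle lists help to read these tumor comparisons. In the B1/P tumors the adipocyte list summed to 203.5 to 373.5 CPM, in B1/P/Rbf tumors to 259 to 803 CPM and in P/Rbf tumors to 132 to 452 CPM, ranges that overlap. Such sums can follow few genes. B1/P/Rbf tumor 5, with the highest sum, had 1 gene at 87% of the gland mean and a median of 0.17%. By the median gene, B1/P tumors held 0.214% to 0.56% of the gland mean, B1/P/Rbf tumors 0.081% to 2.1% and P/Rbf tumors 0.055% to 0.22%. Of the 28 adipocyte genes 4 were called lower and 1 higher in B1/P than in B1/P/Rbf tumors, and 1 lower and 4 higher than in P/Rbf tumors (2 higher without tumor 3). All genes were called lower in 7.36% and higher in 9.29% of cases against B1/P/Rbf tumors, and in 8.43% and 10.8% against P/Rbf tumors. The adipocyte medians moved with tumor 5, from -0.28 to -1.44 against B1/P/Rbf and from 1.44 to 0.25 against P/Rbf tumors without it. Muscle genes were called higher in B1/P tumors, 14 of 27 against B1/P/Rbf (1 was lower) and 16 of 27 against P/Rbf tumors, and this rested on tumor 5: without it 5 and 5 were, where 9.29% and 10.8% of all genes were called higher with it. With it, 2 and 3 of the 27 genes lay above those groups without overlap, as 5.48% and 5.11% of all genes did.

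The 5 tumors differed from each other far more than the glands did. The median over genes of the SD of log2 CPM was 0.63 among the 5 B1/P tumors, 0.52 among B1/P/Rbf tumors, 0.58 among P/Rbf tumors and 0.19 among the 3 glands. By list, B1/P tumors had a median gene SD of 1.58 for cartilage, 1.80 for luminal and 2.69 for squamous genes, against 0.99, 0.90 and 1.73 in B1/P/Rbf and 1.10, 1.17 and 1.73 in P/Rbf tumors, and of 0.53 for proliferation genes against 0.32 and 0.46. B1/P tumors were less spread in some lists, with 0.56 against 0.69 and 0.81 for basement membrane, 0.83 against 0.91 and 0.88 for fibrillar matrix, and 0.68 against 0.77 and 0.87 for endothelial genes. In a principal component analysis of the 8 samples the first component (62.6% of the variance) separated tumors from glands, the second (12.2%) placed tumors 2 and 3 on one side and 1, 4 and 5 on the other, and the third (9.26%) separated tumor 3 from tumor 2. These values describe the libraries and carry no test.

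Tumors 1 and 4 were the most cartilage-like by level. Relative to the gland mean, the cartilage list had a median log2 difference of 2.84 in tumor 1 and 3.89 in tumor 4, and of 1.63, 1.59 and 1.39 in tumors 2, 3 and 5. Tumor 1 held the highest Sox9, 126 CPM, and 11 genes at least 8-fold above all other tumors, among them Matn4, Krt75 and Ptgds. In tumor 4, 28 genes stood that far above the others. Tbx5, a limb and heart transcription factor, was at 120.7 CPM and at 0.0503 to 0.504 CPM in the other tumors. Gata3, the luminal transcription factor, was at 1.77 CPM where the others had 18.1, 33.6, 28.2 and 46.5 CPM. Igf2, a fetal growth factor, was shared by tumors 1 and 4, 253, 0.563, 2.54, 427 and 2.62 CPM in tumors 1 to 5.

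Tumor 2 combined the highest fibrillar matrix and myeloid sums with the lowest basal sum, while its basement membrane sum, 6125 CPM, was within the 5625 to 8422 CPM of the other tumors. Its fibrillar matrix list summed to 25660 CPM, where the other tumors had 7326 to 13600 CPM. Col1a1 reached 3608 CPM, Tnc 1642 CPM and Mmp13 339 CPM there. The macrophage and neutrophil list summed to 4374 CPM in tumor 2 and 530.5 to 1791 CPM in the others. S100a8, a neutrophil protein, was at 3.91, 118, 105, 10.2 and 2.30 CPM in tumors 1 to 5 against 0.0782, 0.491 and 0.203 CPM in the glands (log2 fold change 7.50 ± 1.65, adjusted p = 0.0022), high in tumors 2 and 3. Adgre1, the macrophage antigen F4/80, was above the glands in all 5, 24.3, 74.5, 63.1, 31.2 and 22.5 CPM against 10.6, 6.32 and 7.96 CPM (log2 fold change 2.38 ± 0.56, adjusted p = 0.0036). Over the list 12 of 17 were called higher and 1 lower, where 16.8% and 16.9% of all genes were, and without tumor 2 it was 7 and 1; with 1 gland left out 5 to 7 were called higher. Activated fibroblast genes were highest in tumor 2 as well, summing to 8413 CPM against 1707 to 3516 CPM in the others. Gland fibroblast genes had a mean log2 CPM of 5.92 there, against 4.26 to 5.10. The part of myeloid cells and fibroblasts in the matrix levels of tumor 2 was not tested. Genes at least 8-fold below all other tumors numbered 65 in tumor 2, led by Krt5, Sostdc1, Col17a1 and Trp73. Col17a1, a hemidesmosome collagen, was at 469, 0.829, 656, 409 and 438 CPM in tumors 1 to 5, and Sostdc1, a secreted BMP and WNT antagonist, at 61.2, 0, 99.5, 37.97 and 117 CPM. Without tumor 2, fibrillar matrix genes called higher than in the gland went from 21 to 16 of 31.

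Of 8 tested milk genes 2 were called higher than in the gland and 3 lower (1 lower without gland 2), where 16.8% and 16.9% of all genes were. The 2 were caseins, highest in tumor 2. Csn1s1, a casein, was at 5.63, 1479.6, 4.50, 2.78 and 76.2 CPM in tumors 1 to 5 and 0.0782, 0.262 and 0.271 CPM in the glands (log2 fold change 10.54 ± 2.29, adjusted p = 0.0021). Csn2, beta casein, was at 4.55, 76.9, 2.39, 3.70 and 25.4 CPM in the tumors and 0.0391, 0.229 and 0.102 CPM in the glands (log2 fold change 7.45 ± 1.56, adjusted p = 0.0015). Every tumor was above every gland for both, and tumor 2 was the highest. Those called lower were Glycam1, described above, Lalba, the milk protein alpha-lactalbumin (log2 fold change -3.59 ± 0.89), and Btn1a1, a milk fat globule protein (-2.40 ± 0.90). Of the genes named here, with 1 library left out at a time, the call against the glands was lost for Lalba without gland 2 (adjusted p = 0.051) and Btn1a1 without tumor 2, 3, 4 or 5 or gland 1, 2 or 3 (adjusted p = 0.059 to 0.19). With limma-voom after quantile normalization the call of Csn1s1 was lost (adjusted p = 0.072). Hmga2, a chromatin protein of fetal tissue and sarcoma, was at 21.3, 94.4, 0.930, 1.183 and 1.80 CPM in the tumors against 1 count in the glands together, a ratio of 2005 (359.7 to 79219, 95% interval for counting error only), which was 504 without tumor 2, and was highest in tumors 1 and 2. Against B1/P/Rbf and P/Rbf tumors, the caseins were higher too (Csn2, log2 fold changes 9.09 ± 1.34 and 9.47 ± 1.37, adjusted p = 0.00059 and 0.00053).

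Squamous genes were highest in tumors 3 and 5. The list summed to 255.2, 103.2, 862, 182.5 and 689 CPM in tumors 1 to 5, to 84.5 to 130.3 CPM in the glands and to 290.9 to 925 CPM in P/Rbf tumors, so the tumor groups overlapped. Krt6b, a keratin of stressed and stratified epithelium, was at 2.54, 2.31, 269.7, 0.621 and 29.4 CPM in tumors 1 to 5. It had 3 counts in the glands together, a ratio of 1983 (678 to 9617, 95% interval for counting error only), which was 243 without tumor 3. Krt16, its partner, was at 1.24, 2.96, 156, 1.24 and 27.3 CPM against 0.156, 0.131 and 0 CPM in the glands (log2 fold change 8.59 ± 2.46, adjusted p = 0.013). Krt10, of the upper epidermis, was at 57.4 CPM in tumor 3 and at 0.711 to 2.69 CPM in the other tumors, which made its mean difference from the gland positive (log2 fold change 1.11 ± 1.23, not called) and, without tumor 3, negative (-1.71). Lor, loricrin of the cornified layer, stayed at or under 1.28 CPM in all 5 tumors and was not called. Of 21 squamous genes 4 were called higher and none lower, near the 16.8% of all genes called higher, and without gland 2 or 3 it was 2 and 0, and without tumor 3 it was 3 and 1, with the median log2 fold change going from 2.08 to 0.22. At the same time tumor 3 had the lowest luminal keratins. Krt19 was at 104, 157, 0.0251, 39.8 and 941 CPM and Krt8 at 307, 229.7, 10.7, 145 and 883 CPM in tumors 1 to 5. Cldn7, a tight junction protein, was at 2.54 CPM where the other tumors had 46.5 to 211 CPM. Among these named genes the call against the glands did not hold for Krt16 without gland 2 or 3 (adjusted p = 0.05 to 0.061) and Krt6b without gland 2 or 3 (adjusted p = 0.051 to 0.055). Neither gene was called with limma-voom after quantile normalization (Krt16, adjusted p = 0.099, and Krt6b, adjusted p = 0.088).

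Tumor 5 kept the most luminal expression. Its luminal list summed to 4559 CPM, within the 4074 to 5029 CPM of the glands, where tumors 1 to 4 had 1379 to 2406 CPM. That sum includes Krt19 and Krt8, at the levels given above, while Esr1 and Prlr lay below every gland in tumor 5. Prlr, the prolactin receptor, was at 14.5, 12.9, 15.3, 42.6 and 225 CPM in tumors 1 to 5 and 559.6, 805 and 659.5 CPM in the glands (log2 fold change -3.44 ± 0.91, adjusted p = 0.0077). Pgr, the progesterone receptor, was at 0.0318, 0.148, 4.27, 28.6 and 46.0 CPM in the tumors and 47.3, 167 and 63.6 CPM in the glands. Tfap2b, a transcription factor of luminal cells, was at 0, 0, 70.3, 0.858 and 40.5 CPM in tumors 1 to 5 and 71.2, 54.7 and 71.4 CPM in the glands, highest among the tumors in 3 and 5. This tumor also carried Krt5, 854 CPM, and Trp63, 306 CPM, so its luminal sum and these basal genes were both high among the 5 tumors. Its muscle genes and traces of fat, described above, came with it, and their part in its luminal levels was not tested.

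**Figure D5:**
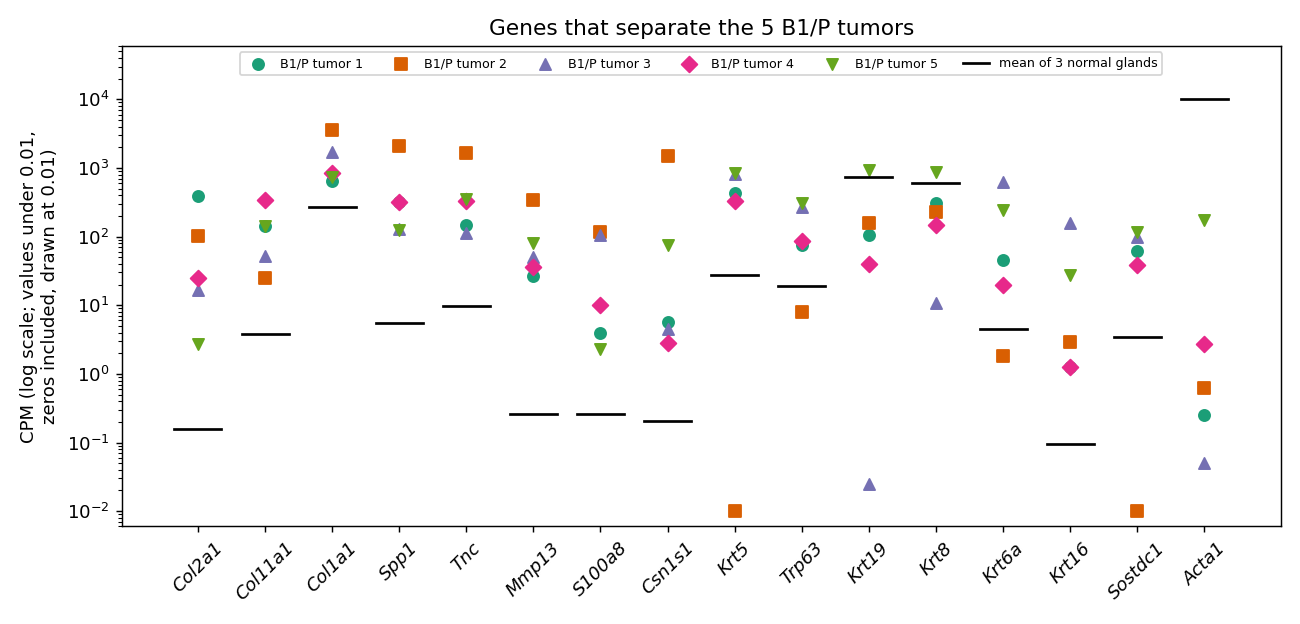
CPM of 16 genes in each B1/P tumor (symbols) beside the mean of 3 normal glands (bars), on a log scale with values under 0.01 drawn at 0.01. Krt5 and Sostdc1 have no count in tumor 2, Krt19 stands at 0.0251 CPM in tumor 3, and Acta1 stands at 177 CPM in tumor 5.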

How the data were processed

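The authors extracted RNA from tumors and glands and deposited RSEM expected counts (estimated counts per gene, RSEM 1.3.0 and cutadapt 1.18 in the submitters' processing notes) for 55450 mouse genes (GENCODE M21, GRCm38). These were rounded to whole numbers. Genes that passed filterByExpr (minimum count 10, 4 groups) were scaled by TMM and tested in edgeR 4.0.16 (R 4.3.3) with a quasi-likelihood model on the group, fitted to all 18 libraries, with Benjamini-Hochberg adjustment. CPM and log2 CPM (prior count 2) describe levels. Alternatives used DESeq2 1.42.0, limma-voom 3.58.1 with quantile normalization (test and scaling changed together), other scalings, filters and samples, and each library of the comparison left out in turn. The fit was tested on simulated data, where most added changes were not called and few unchanged genes were, so a gene not called here may differ. The members and gene lists were chosen with earlier results of these data known. Named genes were the targeted genes, chosen genes of the lists, the called member of each list with the largest rise and fall without overlap, the 5 largest rises and falls over all genes at 5 CPM or more, and the 5 genes with the largest spread at 20 CPM or more; other list genes are examples, chosen after their values were seen. No value given here comes from the authors' own fold changes. Total depth limits low genes, and intervals and floors cover counting error only. Some list genes are not reported here.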

Additional observations from a re-analysis of the deposited data

Results flagged for a closer look

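Of 125 values checked among the 5 B1/P tumors, 13 had 1 tumor far from the other 4, by a gap to the nearest tumor of more than 0.71 of the whole range. Chance gives about 1 in 20 groups, but some of these genes were chosen for their spread among the same tumors or after their values were seen, so the count is not set against that rate. Tumor 2 stood low for Krt5 (0 CPM), Sostdc1 (0 CPM), Sox10 (163.5 CPM) and Col4a1 (1005 CPM), and high for Marco, a macrophage scavenger receptor (1.599 CPM), and for the activated fibroblast list (mean log2 CPM 6.634). Tumor 5 stood high for Plin1 (2.522 CPM), Cox8b (0.3783 CPM), the adipocyte list (mean log2 CPM 2.503) and the skeletal muscle list (mean log2 CPM 3.934). Tumor 3 stood low for Elf5 (11.76 CPM) and high for Pdgfrb (199.5 CPM). Tumor 1 stood high for Sox9 (126 CPM).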

How the results depend on the processing

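Of 1556 values of 102 named genes under alternative settings, 1423 kept direction and call, 95 lost the call, 18 gained it and 20 changed sign. With log2 CPM of at least 6 in 6 samples required, fewer genes were tested and 823 were called higher and 777 lower than in the gland, 440 and 446 against B1/P/Rbf and 432 and 434 against P/Rbf tumors, and list medians were -5.22 (adipocyte, 2 genes), 1.22 (EMT, 7 genes) and 1.71 (cartilage, 1 gene). Without TMM, 5126 genes were called higher, and EMT and proliferation medians were 1.81 and 3.48. With tumors 4 and 5 alone, a pair that an earlier analysis of these data set apart and the labels do not name, they were 0.89 and 3.42. With that pair 11 calls of named genes against the glands were lost (adjusted p = 0.051 to 0.26). These were the calls of Cdh1, Epcam, Col1a1, Lox, Pdgfrb, Twist2, Col4a3, Krt14, Sox9, Matn4 and Erbb2. Voom with quantile normalization gave 3.40 for proliferation. The spread among tumors was 0.667 with a prior count of 0.5 and 0.463 with the stricter filter. Calls lost with only the 8 samples fitted were those of Epcam (adjusted p = 0.057), Matn4 (0.079) and Kcnip1 (0.054), and with library sizes in place of TMM those of Pecam1 (0.091), Twist2 (0.064) and Myh11 (0.082). The cause of these shifts was not tested.

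With 1 library left out, 1788 to 3180 genes were called higher and 2532 to 3255 lower than in the gland, 1481 to 1990 and 1085 to 1477 against B1/P/Rbf, and 1694 to 2174 and 1223 to 1750 against P/Rbf tumors. List medians ran from -8.27 to -7.70 (adipocyte), -11.84 to -7.97 (skeletal muscle), 0.34 to 1.62 (EMT), 1.61 to 2.12 (fibrillar matrix), 2.89 to 3.49 (cartilage) and 2.98 to 3.24 (proliferation), and the spread from 0.587 to 0.623, that last alternative chosen after seeing the data.

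Log2 fold changes that changed sign were all of uncalled genes. Vim was at -0.0082 with DESeq2, -0.0053 with scaling free of fat and muscle genes, -0.017 with no filter, -0.27 with the stricter filter, -0.17 with tumors 4 and 5 alone, and -0.24 to 0.11 with 1 library left out. Acta2 was at 0.27 without TMM and -0.34 to 0.16 with 1 library left out. Rgs5 was at -0.0058 with the stricter filter and -0.20 with tumors 4 and 5 alone, where Col3a1 was at -0.22 and Krt10 at -1.38; Krt10 was at -1.71 without tumor 3. Lor was at 0.68 with voom and -2.70 to 6.82 with 1 library left out. No paired analysis was possible because the samples are different mice and the labels give no shared replicate numbers.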

Other observations

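Among genes outside the lists, Fstl4 and Kcnip1 had no count in the glands and rose in B1/P tumors, at least 88.3-fold and 71.3-fold over a floor of 3 counts per library. Without tumor 4 the lowest fold was 32.8 for Fstl4, and without tumor 3 it was 20.7 for Kcnip1. The call of Kcnip1 was lost in edgeR without gland 1, 2 or 3 (adjusted p = 0.053 to 0.057), with only the 8 samples (adjusted p = 0.054) and with limma-voom after quantile normalization (adjusted p = 0.054). Fstl4, a follistatin-like protein, was at 0.0318, 0.0296, 8.02, 32.8 and 5.77 CPM in tumors 1 to 5, and Kcnip1, a potassium channel partner, at 0.0318, 0.0592, 28.9, 8.01 and 0.662 CPM, so tumors 1 and 2 were near 0 for both. H19, a maternally expressed imprinted RNA, was at 21.1, 20.1, 36.3, 1064 and 22.3 CPM in tumors 1 to 5 and 1191, 563 and 734 CPM in the glands, and Tmem132b, one of the 5 genes with the largest spread among the tumors, was at 154, 0.0889, 63.6, 72.1 and 1.13 CPM in the tumors and 0.234, 0.229 and 0.135 CPM in the glands (log2 fold change 8.16 ± 1.82, adjusted p = 0.0025), a call lost with that same limma-voom setting (adjusted p = 0.11). H19 was at gland level in tumor 4 alone.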
